A study of Mus musculus with 8 samples.

Results

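The genes described here are 9 receptors for extracellular nucleotides and adenosine, P2rx4, P2rx7, P2ry2, P2ry6, P2ry12, P2ry13, P2ry14, Adora2a and Adora2b, with Entpd1, which encodes the ectonucleotidase CD39. They were taken by gene symbol, 10 of the 54532 genes in the count table, by a rule that uses no measured value. Bulk RNA-seq was run on bone marrow-derived macrophages (BMDMs) from WT and Gsdmd-/- mice, with 4 libraries per genotype, to compare macrophages with and without gasdermin D. WT mice were female C57BL/6J mice aged 6 to 8 weeks, bought from a vendor, and the Gsdmd-/- mice were a donated knockout line kept at the authors' institution. Bone marrow cells of both genotypes were grown for 6 days with macrophage colony-stimulating factor (M-CSF, 20 ng/ml) and received no treatment. The sources do not say if the libraries of a genotype were made from different mice. The genotypes came from different sources, and source and genotype cannot be told apart. The p-values below therefore measure the spread between these libraries, which may be technical.

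ATP, ADP and UDP leave stressed or dying cells and act on P2X receptors, which are ion channels opened by ATP, and on P2Y receptors, which couple to G proteins. CD39 on the cell surface removes phosphates from ATP and ADP, a second enzyme then forms adenosine, and the adenosine receptors encoded by Adora2a and Adora2b raise cyclic AMP. In macrophages the opening of P2X7 lets potassium out of the cell and activates the NLRP3 inflammasome, whose caspase-1 cuts gasdermin D into a pore-forming fragment.

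Total counts lay between 14935114 and 16794810 per library. Values are given as CPM, the share of a library's counts on a gene after scaling by the TMM method, and a count of 0 allows up to 3 counts, or 0.177 to 0.199 CPM, which covers counting error only. Gsdmd itself had 75.3 ± 14.1 CPM in WT against 16.2 ± 1.56 CPM in Gsdmd-/- libraries (SD, n = 4). Its log2 fold change was -2.22 and its adjusted p 4.67e-05 in the quasi-likelihood test of edgeR. The gene counts do not show which exons the remaining reads cover. All 10 macrophage markers were detected in both genotypes and none had an adjusted p under 0.05 by any of the tools run (1, Adgre1, had an unadjusted p under 0.05 with edgeR and 2 with DESeq2), with a summed level of 16622 to 24648 CPM in WT and 20544 to 24570 CPM in Gsdmd-/- libraries. The libraries WT 2 and WT 3 stood apart from the other 6 on the first principal component, which held 43.6% of the variance. The 8 monocyte markers summed to 49.2 and 46.7 CPM in WT 1 and WT 4, to 7.94 and 7.33 CPM in WT 2 and WT 3, and to 22.8 to 29.7 CPM in the Gsdmd-/- libraries. Of 10 dendritic cell markers, 5 were tested and none had an adjusted p under 0.05 with edgeR. At an unadjusted p under 0.05, Batf3, Clec9a and Itgax were lower in Gsdmd-/- libraries, with log2 fold changes of -0.72, -0.95 and -0.25. Batf3 and Clec9a also passed a change of 0.5 on the log2 scale, where 3.28% of all tested genes were lower at both thresholds. The log2 fold change of Clec9a was -0.06 without WT 2 and WT 3, which had 49.1 and 45.3 CPM against 16.98 and 17.6 CPM in WT 1 and WT 4. The sum of the dendritic cell markers, nearly all of it from the integrin gene Itgax, was 2246 to 2390 CPM in WT and 1688 to 2108 CPM in Gsdmd-/- libraries, without overlap. Siglech, among these, had 0 counts in all libraries. In bulk RNA, fewer cells of a type and less RNA per cell cannot be told apart.

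Of the 10 genes, 7 lie in 3 small clusters (positions from GENCODE M21, build GRCm38). P2ry14 (chr3:59113855-59153618), P2ry13 (chr3:59207892-59210882) and P2ry12 (chr3:59216272-59262871) lie within 149 kb on the minus strand of chromosome 3, inside the gene Med12l on the plus strand. P2rx7 (chr5:122643911-122691432) and P2rx4 (chr5:122707544-122729738) are neighbours on the plus strand of chromosome 5, 16.1 kb apart. P2ry6 (chr7:100937630-100974649) and P2ry2 (chr7:100996568-101012866) lie 21.9 kb apart on the minus strand of chromosome 7. Adora2a (chr10:75316877-75334784), Adora2b (chr11:62248984-62266453) and Entpd1 (chr19:40612366-40741602) stand alone, all on the plus strand.

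**Figure D1:**
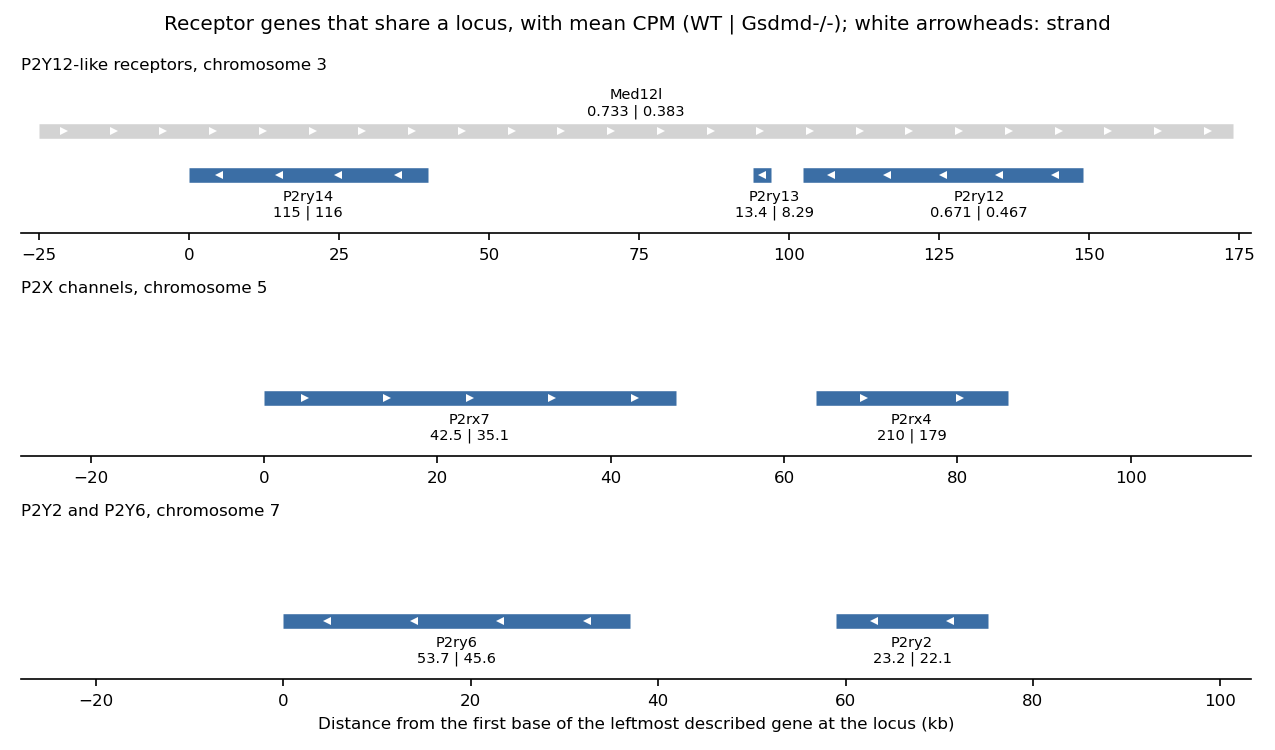
Maps of the 3 loci that hold more than 1 of the genes, with distance in kb along the axis, described genes in blue, Med12l in grey and the mean CPM of WT and Gsdmd-/- libraries under each name. P2ry14, at 115 and 116 CPM, shares its locus with P2ry13, at 13.4 and 8.29 CPM, and with P2ry12, at 0.671 and 0.467 CPM.

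The 250 bases upstream of a RefSeq start are shown for neighbouring genes whose levels differ widely, to let the sequences be read beside the values (GRCm38.p6, gene strand). Capitals mark GAGGAA, the core bound by the myeloid factor PU.1, and TGANTCA, the AP-1 site, each searched on both strands. RefSeq has 4 starts for P2ry14, of which the one with no annotated exon in its window is printed, and 2 for P2rx7, of which the first is printed.
P2ry14, chr3:59131329-59131578, minus strand: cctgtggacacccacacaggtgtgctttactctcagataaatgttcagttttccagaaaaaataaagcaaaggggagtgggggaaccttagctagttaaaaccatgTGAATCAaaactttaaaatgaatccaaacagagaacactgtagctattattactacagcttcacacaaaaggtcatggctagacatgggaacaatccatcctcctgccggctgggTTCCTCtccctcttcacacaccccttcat
P2ry13, chr3:59210883-59211132, minus strand: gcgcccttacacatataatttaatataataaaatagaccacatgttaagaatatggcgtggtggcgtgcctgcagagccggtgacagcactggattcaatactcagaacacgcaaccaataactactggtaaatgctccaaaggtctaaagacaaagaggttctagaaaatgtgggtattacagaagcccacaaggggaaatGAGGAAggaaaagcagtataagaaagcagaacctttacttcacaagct
P2ry12, chr3:59262986-59263235, minus strand: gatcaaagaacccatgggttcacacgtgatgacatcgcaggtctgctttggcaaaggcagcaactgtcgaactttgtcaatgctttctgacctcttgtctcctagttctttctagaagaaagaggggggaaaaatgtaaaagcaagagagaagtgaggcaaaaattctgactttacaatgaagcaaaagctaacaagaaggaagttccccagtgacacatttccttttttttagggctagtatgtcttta
P2rx7, chr5:122643677-122643926, plus strand: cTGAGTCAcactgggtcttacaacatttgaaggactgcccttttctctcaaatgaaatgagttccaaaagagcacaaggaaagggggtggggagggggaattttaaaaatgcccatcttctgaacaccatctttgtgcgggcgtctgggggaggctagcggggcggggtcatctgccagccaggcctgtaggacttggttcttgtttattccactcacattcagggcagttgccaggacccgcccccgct
P2rx4, chr5:122707294-122707543, plus strand: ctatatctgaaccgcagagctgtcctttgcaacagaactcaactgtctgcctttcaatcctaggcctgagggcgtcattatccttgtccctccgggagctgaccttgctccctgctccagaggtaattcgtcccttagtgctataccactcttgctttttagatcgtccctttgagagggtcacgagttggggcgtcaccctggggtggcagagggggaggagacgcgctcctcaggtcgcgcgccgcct
The P2ry14 window held GAGGAA 29 bases and an AP-1 site 144 bases before the start, and the P2ry13 window held GAGGAA 48 bases before it. The first P2rx7 window held an AP-1 site 249 bases before the start. Neither motif was found in the windows of P2ry12, which overlaps an exon of Med12l on the other strand, or of P2rx4. Of 32851 promoter windows of this length, 23.3% held GAGGAA and 6.75% held TGANTCA, so that a match is common, and it is given as a description of the sequence. The 10 genes had 14 windows in RefSeq, from 8 of them. GAGGAA was also present in the other 3 windows of P2ry14 and in 1 of the 2 windows of Entpd1, and TGANTCA in 1 of those other windows of P2ry14. In 1 of those other windows of P2ry14, which overlaps the printed one, the GAGGAA is the same site as in the printed window.

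Levels were compared between the genes as CPM per kilobase of exon over all 8 libraries. The length was that of all annotated exons of a gene joined, 11.1 kb for P2ry14 and 2.89 kb for P2ry6. The order depends on this choice, and without division by length P2ry14 (116 CPM on average) was above P2ry6 (49.6 CPM). Entpd1 (30.9 ± 4.95 CPM per kb, SD, n = 8) and P2rx4 (27.7 ± 2.91) were at the top, and their ranges over the libraries overlapped. P2ry6 followed at 17.2 ± 2.67 CPM per kb, below every P2rx4 value, and P2ry14 at 10.5 ± 0.377 CPM per kb, below every P2ry6 value. Adora2b (9.04 ± 1.88 CPM per kb), P2rx7 (6.50 ± 1.02), P2ry2 (5.76 ± 0.653) and P2ry13 (4.29 ± 1.99) came next, and each overlapped its neighbours in this order. Adora2a (0.400 ± 0.145 CPM per kb) and P2ry12 (0.223 ± 0.0753) were far lower, with overlapping ranges, and both lay below every value of the other 8 genes. P2ry12, the ADP receptor known as a marker of microglia, was thus the lowest of the 10, and the UDP-glucose receptor P2ry14 the highest of the 3 genes at the locus on chromosome 3.

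**Figure D2:**
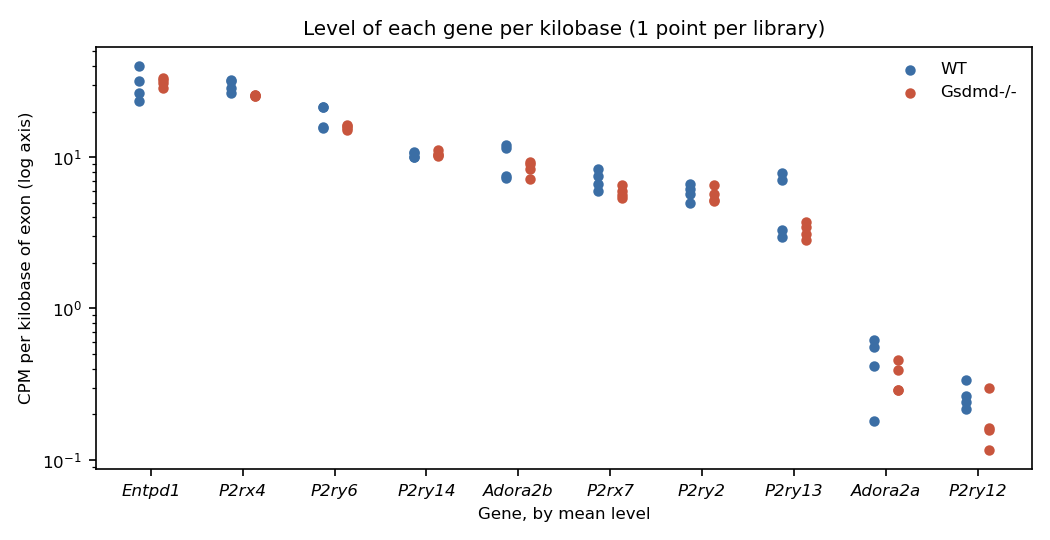
Level of each gene in CPM per kilobase of exon on a log axis, 1 point per library, with genes ordered by their mean over the 8 libraries. Entpd1 and P2rx4 lie above 20 CPM per kb, and Adora2a and P2ry12 below 1 CPM per kb, in every library.

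All 10 genes passed the filter on low counts and were tested between the genotypes among 12911 genes. None had an adjusted p under 0.05 in the quasi-likelihood test of edgeR, where 0.349% of all tested genes did. The same count of 0 was found with limma voom, with the exact test of edgeR and with DESeq2. At an unadjusted p under 0.05 there were 3 of the 10, P2rx4, P2rx7 and P2ry13, all lower in Gsdmd-/- libraries, where 7.30% of all tested genes were, and voom gave 2, the exact test 3 and DESeq2 3. Under a looser rule, an unadjusted p under 0.05 and a log2 fold change of 0.5 or more in size, only P2ry13 passed, as lower in Gsdmd-/- libraries, where 3.28% of all tested genes passed in that direction. P2ry13 no longer passed this rule with limma voom, or with the replicate number as a further term in edgeR. The log2 fold change was below 0 for 8 of the 10 genes and its median was -0.23, and over all tested genes it was below 0 for 51.5% with a median of -0.0068. The groups did not overlap for 1 gene, P2rx4, where 4.12% of all tested genes were lower in Gsdmd-/- libraries without overlap and 7.60% differed without overlap in either direction.

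**Figure D3:**
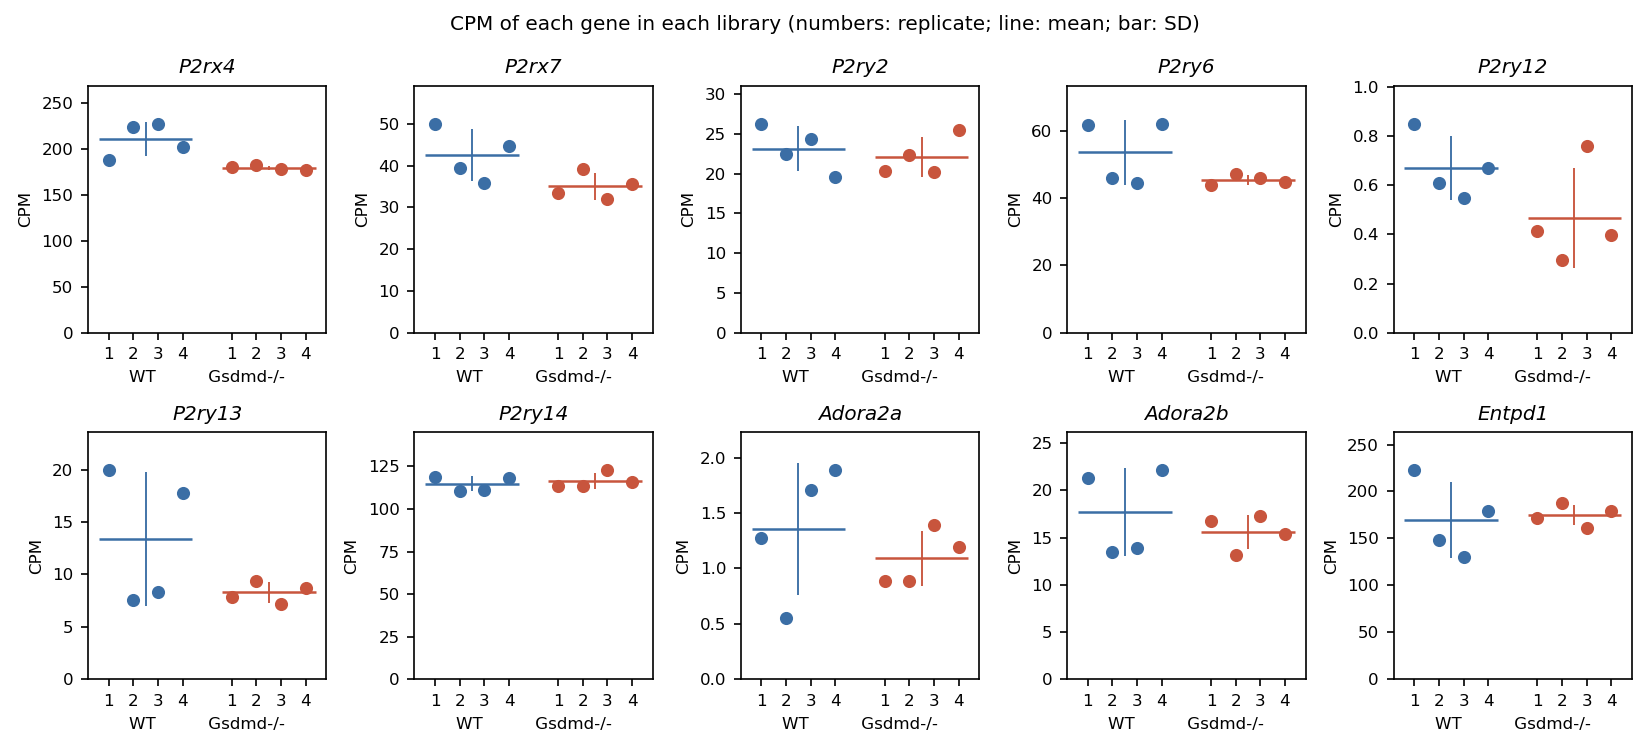
CPM of each of the 10 genes in each library, with the replicate number on the horizontal axis, the group mean as a horizontal line and the SD as a bar. P2rx4 is the gene whose groups do not overlap, and WT 1 and WT 4 lie above WT 2 and WT 3 for P2rx7, P2ry6, P2ry12, P2ry13, P2ry14, Adora2b and Entpd1.

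Among the P2X channels, P2rx4 (ENSMUSG00000029470), a calcium-permeable channel found largely on lysosomes, had 187.8, 223.0, 227.2 and 202.2 CPM in WT 1 to 4 and 180.0, 181.9, 178.3 and 177.2 CPM in Gsdmd-/- 1 to 4. Every WT library was above every Gsdmd-/- library, and the Gsdmd-/- values lay close together. The means were 210 ± 18.4 and 179 ± 2.07 CPM (SD, n = 4), so that the Gsdmd-/- mean was 85.4% of the WT mean. The log2 fold change was -0.23 (95% interval -0.41 to -0.05, unadjusted p = 0.0192, adjusted p = 0.318, edgeR). The exact permutation test, two-sided, gave p = 0.0286 for P2rx4, the smallest that 4 against 4 libraries allow and the value that any gene without overlap has, and 0.0571 for P2rx7 and 0.314 for P2ry13. The unadjusted p of the edgeR test was 0.0508 without WT 2 and 0.0642 without WT 3, and under 0.05 without any other single library. Adgre1, which encodes the macrophage marker F4/80, was also higher in every WT than in every Gsdmd-/- library, at 303 ± 23.3 and 258 ± 13.8 CPM (SD, n = 4), with a Gsdmd-/- mean of 84.9% of the WT mean (adjusted p = 0.310, edgeR). Itgax likewise did not overlap, with a Gsdmd-/- mean of 84.3% of the WT mean (adjusted p = 0.337). The other 9 macrophage markers overlapped between the genotypes, with log2 fold changes from -0.48 (Mertk) to 0.20 (Lyz2), and 3 of them, Lyz2, Cd68 and Itgam, were above 0. The part of these markers in the P2rx4 values was not tested. Against WT 1 and WT 4 alone the log2 fold change was -0.12 (95% interval -0.31 to 0.06, adjusted p = 0.622, edgeR), and against WT 2 and WT 3 alone it was -0.33 (adjusted p = 0.0116), a fit in which 20.7% of all tested genes had an adjusted p under 0.05.

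P2rx7 (ENSMUSG00000029468), the ATP-gated channel upstream of the inflammasome, had 50.1, 39.5, 35.8 and 44.7 CPM in the WT libraries and 33.5, 39.3, 31.9 and 35.6 CPM in the Gsdmd-/- libraries. WT 1, WT 2 and WT 4 were above all Gsdmd-/- libraries, WT 2 by less than 1 CPM, and WT 3 was below Gsdmd-/- 2. The means were 42.5 ± 6.23 and 35.1 ± 3.19 CPM (SD, n = 4), with a log2 fold change of -0.28 (95% interval -0.54 to -0.02, unadjusted p = 0.0390, adjusted p = 0.387, edgeR). The difference was -0.44 without WT 2 and WT 3 (adjusted p = 0.114) and -0.10 without WT 1 and WT 4 (adjusted p = 0.504). Its unadjusted p was above 0.05 when WT 1, WT 4, Gsdmd-/- 1, Gsdmd-/- 3 or Gsdmd-/- 4 was left out, up to 0.117 without WT 1. Between P2rx7 and P2rx4 the annotation has no other protein-coding gene. The gene on the far side of P2rx4, Camkk2, which encodes a calmodulin-dependent kinase, had 54.0 ± 6.18 CPM in WT and 51.0 ± 3.97 CPM in Gsdmd-/- libraries (SD, n = 4), with a log2 fold change of -0.08 and an adjusted p of 0.789.

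Among the P2Y receptors that couple mainly to phospholipase C, P2ry6 (ENSMUSG00000048779), the UDP receptor, had 61.7, 46.0, 44.7 and 62.3 CPM in WT and 43.9, 47.4, 46.1 and 44.9 CPM in Gsdmd-/- libraries. WT 1 and WT 4 stood above all other libraries, and WT 2 and WT 3 lay within the Gsdmd-/- range. The means were 53.7 ± 9.62 and 45.6 ± 1.505 CPM (SD, n = 4), with a log2 fold change of -0.24 (95% interval -0.51 to 0.03, adjusted p = 0.492, edgeR). Without WT 2 and WT 3 it was -0.45 with an adjusted p of 0.0478, where 0.813% of all tested genes were lower at that threshold, and without WT 1 and WT 4 it was 0.0054 (adjusted p = 0.972). Its neighbour P2ry2 (ENSMUSG00000032860), the receptor for ATP and UTP, had 19.5 to 26.3 CPM in WT and 20.2 to 25.5 CPM in Gsdmd-/- libraries, and the groups overlapped. The log2 fold change of P2ry2 was -0.07 (95% interval -0.34 to 0.20, adjusted p = 0.862, edgeR). The gene on the far side of P2ry2, Fchsd2, which encodes a membrane-bending protein, had 17.6 ± 3.54 and 14.1 ± 1.66 CPM (SD, n = 4), with an adjusted p of 0.483. Arhgef17, on the far side of P2ry6, had 1.10, 5.32, 3.66 and 0.913 CPM in WT and 0.769 to 2.06 CPM in Gsdmd-/- libraries. Its log2 fold change was -1.08 (adjusted p = 0.494, edgeR). It was 0.36 without WT 2 and WT 3 (adjusted p = 0.818) and -1.79 without WT 1 and WT 4 (adjusted p = 0.00438).

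Among the P2Y receptors that couple to inhibitory G proteins, P2ry13 (ENSMUSG00000036362), an ADP receptor, had 19.96, 7.52, 8.31 and 17.8 CPM in WT 1 to 4 and 7.88, 9.40, 7.17 and 8.69 CPM in Gsdmd-/- 1 to 4. The values of WT 1 and WT 4 were 2.38 times those of WT 2 and WT 3 on average, and WT 2 and WT 3 lay within the Gsdmd-/- range. A ratio of this size or more between these pairs of WT libraries was found in 1.90% of all tested genes. The means were 13.4 ± 6.40 and 8.29 ± 0.971 CPM (SD, n = 4), with a log2 fold change of -0.69 (95% interval -1.36 to -0.02, unadjusted p = 0.0443, adjusted p = 0.398, edgeR). It was -1.19 without WT 2 and WT 3 (adjusted p = 0.00537) and 0.07 without WT 1 and WT 4 (adjusted p = 0.795). The unadjusted p rose above 0.05 when WT 1, WT 4 or any 1 of the 4 Gsdmd-/- libraries was left out, and was highest, at 0.158, without WT 1. Ly6c2, a marker of inflammatory monocytes, had 35.5, 1.53, 0.427 and 30.3 CPM in WT 1 to 4 and 15.4 to 22.9 CPM in the Gsdmd-/- libraries, and Ccr2, the chemokine receptor of monocytes, had 10.8, 2.32, 2.63 and 13.4 CPM in WT and 2.90 to 4.31 CPM in Gsdmd-/- libraries. The summed macrophage, mast cell and basophil, and stromal and endothelial markers also had WT 1 and WT 4 above WT 2 and WT 3. The sums of the neutrophil, dendritic cell, megakaryocyte and platelet, lymphoid and erythroid markers did not have this order. The mast cell and basophil markers summed to 80.6, 16.4, 16.5 and 68.4 CPM in WT 1 to 4 and 53.5 to 75.1 CPM in Gsdmd-/- libraries. Most of this came from Kit, at 71.0, 11.4, 10.3 and 60.0 CPM in WT. The stromal and endothelial markers summed to 72.3, 32.9, 31.3 and 65.4 CPM in WT and 51.8 to 83.5 CPM in Gsdmd-/- libraries. Most of this came from Kdr, at 65.6, 23.6, 21.1 and 54.8 CPM in WT. In the same list Lepr had the order of Kdr, while Pdgfra (0.183, 2.08, 1.59 and 0.183 CPM in WT) and Pecam1 had the opposite order, all at low levels. The macrophage marker Fcgr1 had 36.2, 7.09, 6.66 and 40.7 CPM in WT and 17.8 to 26.9 CPM in Gsdmd-/- libraries. Of the macrophage markers, Adgre1, Mrc1 and Mertk had the opposite order, with Mertk at 141, 250, 212 and 101 CPM in WT. The remaining macrophage markers had the order of Fcgr1, with smaller ratios between the pairs. The part of any of these cells in the P2ry13, P2ry6 and Adora2b values was not tested.

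P2ry14 (ENSMUSG00000036381), the receptor for UDP-glucose, had 118.9, 110.8, 111.1 and 118.2 CPM in WT and 113.3, 113.8, 122.9 and 115.9 CPM in Gsdmd-/- libraries. The groups overlapped, and the 95% interval of the log2 fold change of 0.02 ran from -0.14 to 0.18 (adjusted p = 0.935, edgeR), the narrowest interval of the 10 genes. P2ry12 (ENSMUSG00000036353), the second ADP receptor, was counted only 44 times in WT and 30 times in Gsdmd-/- libraries in all, at 0.550 to 0.852 and 0.296 to 0.761 CPM. Its log2 fold change of -0.52 had an interval from -1.34 to 0.30 (adjusted p = 0.625, edgeR), and its unadjusted p was under 0.05 (0.0498) when Gsdmd-/- 3 was left out. Med12l, which spans the locus, had 73 reads in all. Gpr171, the next gene beside P2ry14 and a further G protein-coupled receptor, had 11.1, 3.42, 4.58 and 12.3 CPM in WT and 2.72, 2.90, 4.25 and 5.31 CPM in Gsdmd-/- libraries. WT 1 and WT 4 were again above all other libraries, and the log2 fold change was -1.05 (adjusted p = 0.350, edgeR). It was -1.64 without WT 2 and WT 3 (adjusted p = 0.0126) and -0.09 without WT 1 and WT 4 (adjusted p = 0.860).

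Of the adenosine receptors, Adora2b (ENSMUSG00000018500), which couples to adenylyl cyclase with low affinity for adenosine, had 21.4, 13.4, 13.9 and 22.2 CPM in WT and 16.7, 13.2, 17.3 and 15.4 CPM in Gsdmd-/- libraries. The Gsdmd-/- values lay between those of the WT pairs, apart from Gsdmd-/- 2, which was just below WT 2. The log2 fold change was -0.18 (95% interval -0.59 to 0.22, adjusted p = 0.748, edgeR), and it was -0.48 without WT 2 and WT 3 (adjusted p = 0.128) and 0.19 without WT 1 and WT 4 (adjusted p = 0.328). Adora2a (ENSMUSG00000020178), the high-affinity receptor, was counted 89 times in WT and 70 times in Gsdmd-/- libraries, at 0.550 to 1.89 and 0.887 to 1.40 CPM. Its log2 fold change was -0.32 with an interval from -1.14 to 0.51 (adjusted p = 0.780, edgeR).

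Entpd1 (ENSMUSG00000048120), whose enzyme breaks down ATP and ADP, had 222.8, 147.8, 130.4 and 179.0 CPM in WT and 172.1, 187.2, 160.9 and 179.4 CPM in Gsdmd-/- libraries. The WT values spread more widely than the Gsdmd-/- values and surrounded them, at 170 ± 40.5 and 175 ± 11.2 CPM (SD, n = 4). The log2 fold change was 0.04 (95% interval -0.29 to 0.37, adjusted p = 0.942, edgeR). It was -0.20 without WT 2 and WT 3 (adjusted p = 0.513) and 0.33 without WT 1 and WT 4 (adjusted p = 0.0306). The pseudogene Gm8783 within Entpd1 had 113 reads in all 8 libraries, against 11157 and 11312 for Entpd1 in the genotypes.

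**Figure D4:**
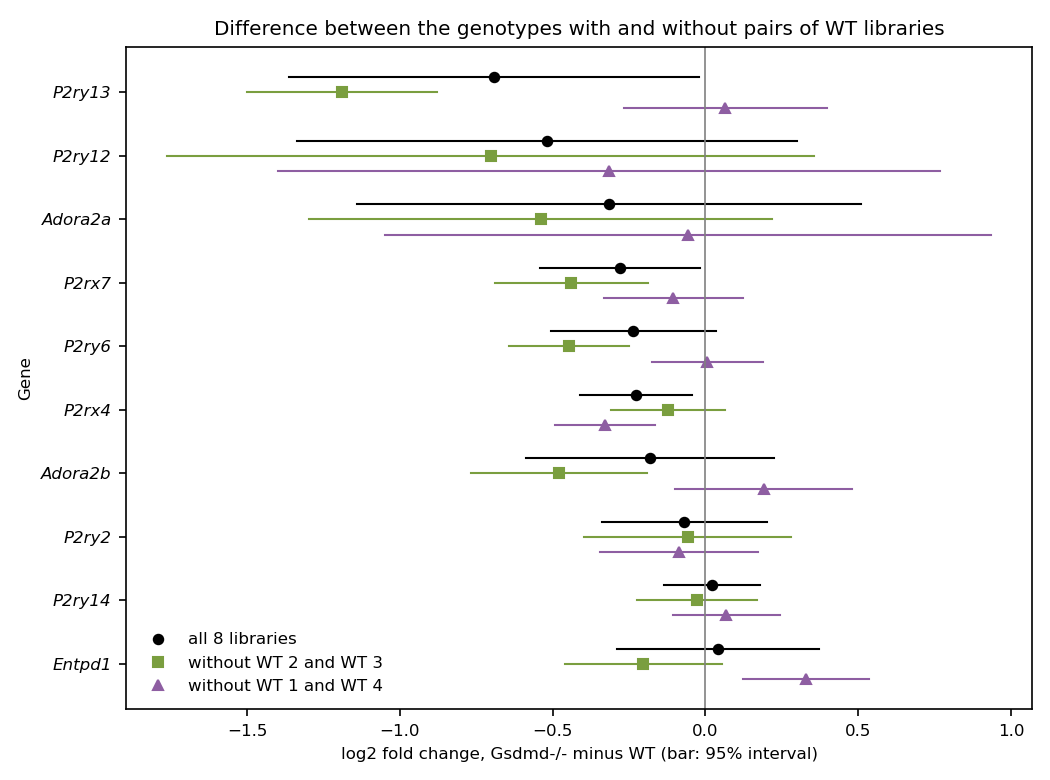
Log2 fold change of Gsdmd-/- minus WT for each gene with its 95% interval, for all 8 libraries (circles), without WT 2 and WT 3 (squares) and without WT 1 and WT 4 (triangles). P2ry13 moves from -1.19 to 0.07 between the fits that leave out a pair of WT libraries, and P2ry14 stays between -0.03 and 0.07.

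The split among the WT libraries ran through these genes. WT 1 and WT 4 were both above WT 2 and WT 3 in 7 of the 10, where 28.7% of all tested genes had this order, and both below in P2rx4, where 29.4% had the opposite order. Without WT 2 and WT 3, 5 of the 10 genes did not overlap between the genotypes, P2rx4, P2rx7, P2ry6, P2ry13 and Adora2b, all lower in Gsdmd-/- libraries, where 11.4% of all tested genes were. P2ry6 and P2ry13 then had an adjusted p under 0.05, where 1.21% of all tested genes did. Without WT 1 and WT 4, P2rx4 (lower) and Entpd1 (higher) had an adjusted p under 0.05, where 20.7% of all tested genes did. P2rx4, lower, and P2ry14 and Entpd1, higher, then did not overlap between the genotypes, where 45.7% of all tested genes did not. No gene of the 10 had an adjusted p under 0.05 in both of these fits. The pairs were set apart by values of these same libraries, so the adjusted p-values of these fits are given as description.

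The genes around these receptors were read from 4 lists. Of the 11 other P2 and adenosine receptors, 5 passed the filter, and 1 fell in Gsdmd-/- libraries at an adjusted p under 0.05, where 0.209% of all tested genes did. This was P2rx5 (ENSMUSG00000005950, chr11:73160421-73172685), a P2X channel subunit, with 24.5, 31.5, 31.6 and 32.4 CPM in WT and 12.9, 13.01, 18.6 and 18.6 CPM in Gsdmd-/- libraries. All WT libraries were above all Gsdmd-/- libraries, WT 2 and WT 3 included. The Gsdmd-/- mean of 15.8 ± 3.26 CPM (SD, n = 4) was 52.5% of the WT mean, whose SD was 3.71 CPM, with a log2 fold change of -0.93 (95% interval -1.28 to -0.58, adjusted p = 0.0392, edgeR). The adjusted p was above 0.05 when WT 2, WT 3 or any 1 of the 4 Gsdmd-/- libraries was left out, up to 0.179 without Gsdmd-/- 1, and was 0.0678 without both WT 2 and WT 3, with a log2 fold change of -0.85. P2ry10b, the list's most abundant gene and a paralog of P2ry10 with which it may share reads, had 39.2 ± 3.35 and 41.5 ± 3.86 CPM (adjusted p = 0.788), and P2ry1, the third ADP receptor, had 18.1 and 19.0 CPM on average (adjusted p = 0.837). P2ry4 and Adora1 had 0 counts in all libraries, and P2rx1, P2rx2, P2rx3 and P2ry10 had at most 6 counts in any library.

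Of 21 ectonucleotidases and genes that handle nucleosides, 13 were tested and none had an adjusted p under 0.05 with any of the tools, while 2 had an unadjusted p under 0.05 with edgeR and DESeq2 and 3 with voom. Over all 12911 tested genes, 1555 had an unadjusted p under 0.05 with edgeR, a share near that of this list. The most abundant were Bst1, an enzyme that cleaves NAD, at 257 ± 42.3 and 224 ± 17.03 CPM (adjusted p = 0.567), and Slc29a3, a nucleoside transporter of lysosomes, at 189 ± 33.0 and 215 ± 34.8 CPM (adjusted p = 0.674). Nt5e, which encodes the enzyme CD73 that forms adenosine from AMP, did not pass the filter, with 2 to 12 counts per library. Of 13 genes for ATP release and for the path from P2X7 to the inflammasome, 10 were tested, none had an adjusted p under 0.05 with any of the tools, and 3 had an unadjusted p under 0.05 (2 with voom), beside the 1555 of 12911 over all genes. Slc17a9, the transporter that loads ATP into vesicles, was the only one past the looser rule, as lower, where 3.28% of all tested genes were. It had 4.99, 7.33, 8.55 and 4.81 CPM in WT and 3.74 to 5.44 CPM in Gsdmd-/- libraries, with a log2 fold change of -0.51 (adjusted p = 0.391, edgeR) that was -0.12 without WT 2 and WT 3 (adjusted p = 0.867). Nek7, a kinase that NLRP3 needs, had 131.2 to 155.3 CPM in WT and 161.9 to 176.3 CPM in Gsdmd-/- libraries, without overlap, with a log2 fold change of 0.27 (95% interval 0.09 to 0.45, adjusted p = 0.235, edgeR). Casp1, which encodes the caspase that cuts gasdermin D, had 67.1 ± 10.7 and 79.6 ± 9.54 CPM (adjusted p = 0.489), and the groups overlapped. Nlrp3 had 80.8, 29.0, 27.0 and 74.2 CPM in WT and 41.8 to 47.9 CPM in Gsdmd-/- libraries. Its log2 fold change was -0.23 (adjusted p = 0.827, edgeR). It was -0.78 without WT 2 and WT 3 (adjusted p = 0.00646) and 0.69 without WT 1 and WT 4 (adjusted p = 0.000954).

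Of 41 genes of G protein, cyclic AMP and phospholipase C signalling, 36 were tested and none had an adjusted p under 0.05 with the quasi-likelihood test or voom, and 1, Grk5, with the exact test and DESeq2, with 7 at an unadjusted p under 0.05 (5 with voom and 9 with DESeq2), beside the 1555 of 12911 over all genes. Under the looser rule 4 passed as lower, where 3.28% of all tested genes did, and 1 as higher, where 1.54% did. Grk5, a kinase that switches off receptors, had 22.3 to 30.9 CPM in WT and 17.7 to 19.9 CPM in Gsdmd-/- libraries, without overlap (log2 fold change -0.51, adjusted p = 0.174, edgeR), and its adjusted p was 0.0473 in the exact test of edgeR and 0.0322 in DESeq2. Plcb3, a phospholipase C, had 31.2 to 45.8 and 24.8 to 29.4 CPM, also without overlap (log2 fold change -0.50, adjusted p = 0.209). Without WT 2 and WT 3 the log2 fold change was -0.27 for Grk5, -0.23 for Plcb3 and -0.33 for Itpr3, with adjusted p-values of 0.297, 0.391 and 0.507. Itpr3, a calcium channel opened by the product of that enzyme, had 17.6 ± 3.995 and 11.9 ± 1.999 CPM, with overlap (log2 fold change -0.56, adjusted p = 0.272). Adcy4, an adenylyl cyclase, had 7.79, 20.3, 19.5 and 6.82 CPM in WT and 6.87 to 8.56 CPM in Gsdmd-/- libraries, so that WT 2 and WT 3 alone stood above the rest. Its log2 fold change was -0.84 (adjusted p = 0.364), and 0.05 without WT 2 and WT 3 (adjusted p = 0.942). Rapgef3, a target of cyclic AMP, was counted 29 times in WT and 77 times in Gsdmd-/- libraries (log2 fold change 1.42, 95% interval 0.40 to 2.43, adjusted p = 0.271), at no more than 1.60 CPM in any library. The most abundant genes, Gnai2, an inhibitory G protein subunit, at 864 ± 162 and 881 ± 62.1 CPM, and Gnb1, a beta subunit, at 374 ± 49.4 and 389 ± 12.8 CPM, had adjusted p-values of 0.953 and 0.865.

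**Figure D5:**
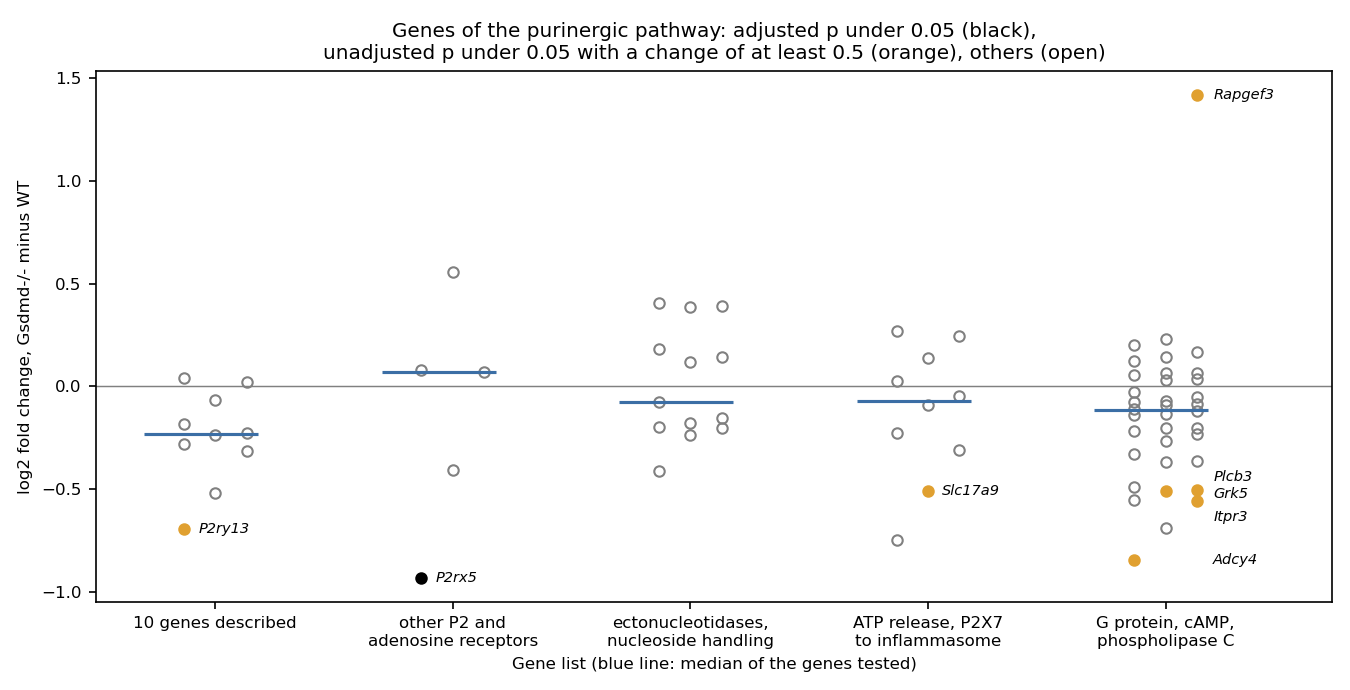
Log2 fold change of Gsdmd-/- minus WT for the tested genes of each list, 1 point per gene, with the median as a blue line, adjusted p under 0.05 in black and the looser rule in orange. P2rx5, at -0.93, is the only black point, and the 10 described genes have a median of -0.23.

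The genes whose pattern over the 8 libraries was most like that of P2rx4 and P2rx7 were found by the root mean square difference of centred log2 CPM, among 12910 other genes. For P2rx4 they were Irak4, a kinase of Toll-like and interleukin-1 receptor signalling (0.0403), Prkcd, a protein kinase C (0.0438), and Sipa1, a protein acting on the GTPase Rap (0.0452). For P2rx7 they were Cad, an enzyme of pyrimidine synthesis (0.0420), 1700017B05Rik (0.0589) and Plcg2, a phospholipase C (0.0609).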

How the data were processed

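Total RNA of 4 WT and 4 Gsdmd-/- BMDM samples was made into TruSeq libraries and sequenced by a company. The authors deposited 1 table of read counts per gene, not normalized, and its values were checked to be whole numbers. The submitters' processing notes name the build mm10, while the aligner, the counting tool and the annotation are not given in the sources used here. Strand was not stated for the counting, so that reads of P2ry12, P2ry13 and P2ry14 cannot be told apart from those of Med12l where they overlap.

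Of 54532 identifiers, 54409 were found in GENCODE M21. Counts were filtered (filterByExpr) and scaled (TMM) in edgeR 4.0.16 (R 4.3.3), and 12911 genes were compared with its quasi-likelihood test, two-sided, with Benjamini-Hochberg adjustment over all of them and genotype as the only term. The study's text names limma in its methods and edgeR for its plot of changed genes. The quasi-likelihood test was used here since the table holds counts, with limma voom (limma 3.58.1) as an alternative. Further alternatives were DESeq2 1.42.0 and edgeR's exact test, scaling by upper quartile or RLE, a minimum of 10 counts per library or no minimum, each library left out, WT 2 and WT 3 left out, a replicate block and, added after the data had been seen, WT 1 and WT 4 left out. Log2 CPM used a prior count of 2. The scripts were tested on simulated data.

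Named were all 10 genes, Gsdmd, the genes within and next to their loci (some are not reported here), the 2 most abundant genes of each list, list genes at an adjusted p under 0.05 or past the looser rule, and the 3 genes most like P2rx4 and P2rx7. P2ry1, Nt5e, P2ry4, Adora1, P2rx1, P2rx2, P2rx3, P2ry10, Nlrp3, Ly6c2, Ccr2, Adgre1, Mertk, Mrc1, Lyz2, Cd68, Itgam, Itgax, Batf3, Clec9a, Fcgr1, Siglech, Kit, Kdr, Lepr, Pdgfra and Pecam1 were named after their values were seen. The 10 genes, the lists and the tests were chosen with earlier results of these data known.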

Additional observations from a re-analysis of the deposited data

Results flagged for a closer look

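In groups of 4 libraries, a value was marked where its gap to the nearest other library was large against the range of the group (Dixon's test, 95%). This was computed for 50 groups of 4, in 25 genes, and marked 2 of them, and chance marks about 1 in 20 groups. P2rx5 in WT 1 had 24.5 CPM, where the other WT libraries had 31.5 to 32.4 CPM. P2ry10b in WT 1 had 44.2 CPM, where the other WT libraries had 37.2 to 37.9 CPM. None of the 10 receptor and ectonucleotidase genes had such a value. A split into pairs, as between WT 1 and WT 4 and WT 2 and WT 3, is not what this test looks for.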

How the results depend on the processing

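For the 10 genes, 165 of 178 log2 fold changes under the alternatives kept their direction and their side of the adjusted p threshold. In 4 the adjusted p came under 0.05, P2ry6 and P2ry13 without WT 2 and WT 3, and P2rx4 and Entpd1 without WT 1 and WT 4. In 9 the direction turned, to 0.0054, 0.065 and 0.19 for P2ry6, P2ry13 and Adora2b without WT 1 and WT 4, to -0.028 and -0.20 for P2ry14 and Entpd1 without WT 2 and WT 3, and, with a single library left out, within ranges of -0.0036 to 0.039 for P2ry14 and -0.067 to 0.20 for Entpd1. Without WT 2 and WT 3 the log2 fold changes of Gnai2, Gnb1 and Adcy4 turned to -0.18, -0.091 and 0.051. With a single library left out, Gnai2 ranged from -0.062 to 0.14 and Gnb1 from -0.010 to 0.14. The count of the 10 genes with an adjusted p under 0.05 rose from 0 to 2 in each of the fits without 1 pair of WT libraries, and was 0 when any single library was left out. The count under the looser rule, 1, became 0 with limma voom, with the replicate block, without WT 1 and WT 4 and when a change of 1 or more was asked for, and was 0 to 1 when single libraries were left out, the 1 without Gsdmd-/- 3 being P2ry12. Non-overlapping genes numbered 5 without WT 2 and WT 3, 3 without WT 1 and WT 4, and 1 to 2 without a single library. Of all genes, 45 had an adjusted p under 0.05, against 244 in the exact test, 292 in DESeq2, 109 with no filter, 161 without WT 2 and WT 3, 2778 without WT 1 and WT 4, 25 with the replicate block, and 14 to 84 without a single library. The looser rule gave 623 genes, 1204 with no filter, 2214 without WT 1 and WT 4, 199 at a change of at least 1, and 469 to 1022 without a single library. The cause of these changes was not tested. Replicate numbers were not treated as pairs, since the same-number correlations were 0.0268, 0.182, 0.0412 and -0.201, and the replicate block brought none of the 10 described genes under an adjusted p of 0.05. The fewest reads were those of P2ry12, with 5 to 14 counts per library, and Adora2a, with 9 to 31, and counting error weighs most on these genes.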
